A study of Mus musculus with 4 samples.

Results

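Myosin light chains are small proteins of the EF-hand family that wrap the neck of the myosin heavy chain, and 8 of their genes are described here in mouse heart ventricle with and without the histone deacetylase HDAC2. The genes are Myl1, Myl2, Myl3, Myl4, Myl6, Myl7, Myl9 and Mylpf. They were found as every probe set for which the array's annotation gives one of these symbols and no other gene, which returned 11 probe sets out of 45037, and all 8 genes had at least 1. Of the 11, 10 were Present (the detection call of the MAS5 software) on both arrays of at least 1 genotype and were tested. The exception was 1457126_at, a dim second probe set of Myl4.

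Hearts were taken from embryos of a C57BL/6 and SV129 cross at embryonic day 17.5, and ventricular RNA was put on 4 Affymetrix arrays. There were 2 arrays of wild-type embryos (WT), each from a pool of 2 animals, and 2 arrays of HDAC2-deficient littermates (KO), each from a pool of 3. The sources used here do not state how the Hdac2 allele was made or whether it was lost from all cells or from a chosen cell type. The source label of the KO samples calls them wild type as well, so the Hdac2 transcript was read first: its brightest probe set had signals of 1189 and 1421 on the WT arrays and 31.4 and 21 on the KO arrays, with no Present call in KO.

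Every sarcomeric and nonmuscle myosin carries a regulatory and an essential light chain on each head. Regulatory chains are phosphorylated by light chain kinases, a step that starts contraction in smooth muscle and tunes force in the heart, and essential chains stabilise the lever arm. Each muscle type has its own pair: Myl2 and Myl3 in the ventricle and in slow skeletal fibres, Myl7 and Myl4 in the atrium, Mylpf and Myl1 in fast skeletal muscle, and Myl9 and Myl6 in smooth muscle and nonmuscle cells. Myl4 is also made in the ventricle and the skeletal muscle of the embryo and then declines.

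The stretch of 250 bases before the annotated start is shown for both fast skeletal genes, which fell in the arrays, and for Myl3 and Myl7, the 2 cardiac ones of the 4 that hold a CArG box, so that such a box can be seen. The sequences are from RefSeq on build GRCm38.p6, written in the direction of transcription. All 8 genes matched the RefSeq table, with 10 starts in all. Capitals mark the E-box, CANNTG, bound by the myogenic factors and by many others, and the CArG box, bound by serum response factor. Both strands were searched, and no capital stretch overlaps another.
Mylpf: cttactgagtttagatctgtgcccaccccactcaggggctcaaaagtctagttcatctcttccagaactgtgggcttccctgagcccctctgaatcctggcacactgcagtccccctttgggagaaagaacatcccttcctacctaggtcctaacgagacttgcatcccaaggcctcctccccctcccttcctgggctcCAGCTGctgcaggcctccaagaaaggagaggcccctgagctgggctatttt
Myl1: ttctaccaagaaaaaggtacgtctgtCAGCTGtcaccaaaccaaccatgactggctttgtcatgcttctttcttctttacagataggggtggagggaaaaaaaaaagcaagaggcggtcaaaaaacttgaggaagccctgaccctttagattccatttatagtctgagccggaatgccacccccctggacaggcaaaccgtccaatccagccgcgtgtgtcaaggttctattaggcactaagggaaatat
Myl3: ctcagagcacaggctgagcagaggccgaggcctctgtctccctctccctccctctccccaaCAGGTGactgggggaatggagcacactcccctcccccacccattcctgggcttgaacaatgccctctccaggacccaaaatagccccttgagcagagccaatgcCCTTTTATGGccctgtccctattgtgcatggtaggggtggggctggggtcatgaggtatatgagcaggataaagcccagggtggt
Myl7: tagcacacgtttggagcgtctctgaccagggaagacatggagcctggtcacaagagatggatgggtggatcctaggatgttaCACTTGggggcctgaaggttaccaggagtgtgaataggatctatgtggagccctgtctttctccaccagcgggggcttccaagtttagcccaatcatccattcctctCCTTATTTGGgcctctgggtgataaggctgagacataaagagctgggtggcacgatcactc
The Mylpf stretch is chr7:127211358-127211607 on the plus strand and the Myl1 stretch is chr1:66945057-66945306 on the minus strand. The Myl3 stretch is chr9:110763428-110763677 on the plus strand and that of Myl7 is chr11:5898783-5899032 on the minus strand. Both fast genes are annotated as reaching further upstream than the start used here. Mylpf and Myl1 have 1 E-box each, 51 and 224 bases before the start, and both are of the form CAGCTG. An E-box stood in 7 of the 10 stretches of the 8 genes and in 66.2% of 32841 stretches of the same length over all genes. A CArG box stood in 4 of the 10, one each of Myl3, Myl6, Myl7 and Myl9, against 1.47% of all. Neither fast skeletal gene had one in this window, and neither did the cardiac genes Myl2, at both of its starts, and Myl4. The MEF2 site was found in none of the 10 and in 2.92% of all. These matches describe the letters only, and absence from the window says nothing of sites elsewhere.

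Both fast skeletal light chains fell in KO, and no other light chain passed the test in either direction. In limma, 2 of the 10 tested probe sets were lower, which is 20% of them, and 0 were higher. Over all 19065 probe sets tested, 0.96% were lower in KO and 0.383% higher. The genes were chosen with earlier results of these data known, so their share is set beside the background as a description. The median log2 difference, KO minus WT, was -0.026 over the 10 probe sets and 0.014 over all probe sets tested. In 6 of the 10 probe sets the 2 KO arrays lay wholly above or below the 2 WT arrays, and the same held for 47.5% of all tested, so separation of the arrays alone marks nothing here.

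**Figure D1:**
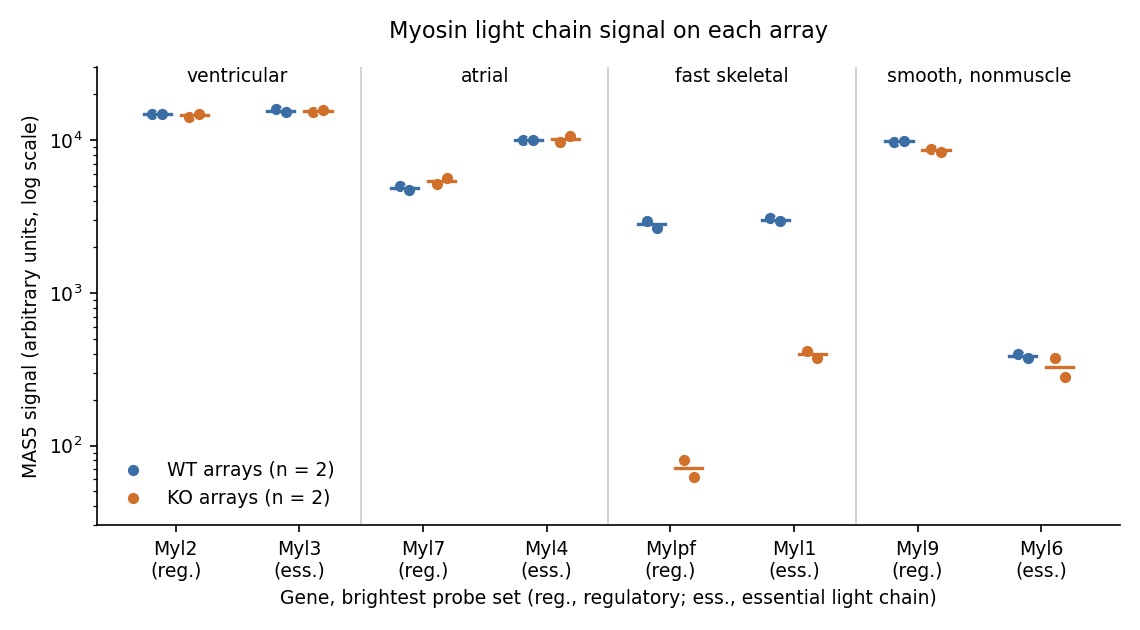
MAS5 signal (arbitrary units, log axis) of the brightest probe set of each light chain gene, with 1 point per array, WT in blue and KO in orange, and a bar at the mean of each group (n = 2). Mylpf drops from 2972 and 2654 to 80.4 and 62.5 and Myl1 from 3082 and 2945 to 419 and 377, while the other 6 genes keep their signals close together; heights of different genes come from different probes and are not comparable.

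Mylpf is the regulatory light chain of fast skeletal fibres. Its signals at 1448371_at were 2972 and 2654 on the WT arrays and 80.4 and 62.5 on the KO arrays. Both KO arrays were called Absent, with detection p-values of 0.150 and 0.0952, against 0.00122 and 0.000732 in WT, as deposited, so Mylpf entered the test through its WT arrays alone. The fitted fall was 39.6-fold (log2 difference -5.31 ± 0.15 SE, 95% interval -5.63 to -4.98, n = 2 arrays per group, adjusted p = 2.50e-10 in limma). The KO signals lay above the lowest Present signals of those arrays, 6.2 and 6, so a bound set there left the fold unchanged. With KO called Absent, the size of the fall is uncertain. The size depended on the scale: it was -4.41 with an offset of 64 added before the log, and -4.25 in the authors' deposited signal log ratio, where the call was lost (adjusted p = 0.275).

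Myl1 encodes the essential light chains of the same fast fibres. At 1452651_a_at its signals were 3082 and 2945 on the WT arrays and 419 and 377 on the KO arrays. Unlike Mylpf, Myl1 was called Present on both KO arrays, with detection p-values of 0.0186 and 0.00293. It fell 7.59-fold (-2.92 ± 0.11, adjusted p = 3.43e-09 in limma). In the signal log ratio the difference was -2.90 and kept its call (adjusted p = 0.0417).

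Mylpf and Myl1, which occupy the same myosin head, had differences of unlike size. That of Mylpf, Absent in KO and so of uncertain size, was fitted at 39.6-fold, and that of Myl1 was 7.59-fold. In the signal log ratio, which the authors deposited, the 2 differences were -4.25 and -2.90. The pair was set side by side after the values were seen, and the difference between their changes was not tested. The labels do not say whether skeletal muscle was included in any dissection, and in a bulk sample fewer fast muscle cells and less of these transcripts per cell cannot be told apart.

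The ventricular pair showed no difference past the threshold. Myl2, the regulatory chain of the ventricle and the one whose phosphorylation tunes cardiac force, had signals of 14814 and 14823 on the WT arrays and 14287 and 14917 on the KO arrays. The difference was -0.022 ± 0.078 (adjusted p = 0.924 in limma), and its 95% interval ran from -0.19 to 0.15. Myl3, the essential ventricular chain, read 15911 and 15297 on the WT arrays and 15415 and 15885 on the KO arrays at its brightest probe set, 1427768_s_at, and the groups overlapped there. Its difference was 0.0044 ± 0.077 (95% interval -0.16 to 0.17, adjusted p = 0.985 in limma). The other 2 Myl3 probe sets gave -0.031 and -0.015. The suffixes s and x mark probes that may match other transcripts, which the third, 1428266_at, lacks. The intervals of all 3 Myl3 probe sets lay within 0.20 of 0. The signs of Myl2 and Myl3 turned with an array left out or another scaling. These 2 genes lay at the top of the scale: Myl3 at 1427768_s_at ranked 1 or 2 and Myl2 ranked 3 of 45037 on every array, where the highest signals were 15415 to 15978. Whether signals that high still follow the amount of RNA was not tested.

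The atrial pair was detected on all 4 arrays of these ventricular samples. Myl7, the atrial regulatory chain, had signals of 5048 and 4714 on the WT arrays and 5157 and 5661 on the KO arrays, so both KO arrays were the higher ones. The difference of 0.15 ± 0.092 did not pass (95% interval -0.051 to 0.35, adjusted p = 0.461 in limma). Myl4, the atrial and embryonic essential chain, read 10016 and 10060 on the WT arrays and 9739 and 10723 on the KO arrays at 1422580_at, with the KO arrays on either side of WT. Its difference was 0.026 ± 0.084 (95% interval -0.16 to 0.21, adjusted p = 0.916), and the sign turned with median centring and without KO replicate 2. The dim Myl4 probe set 1457126_at read 48.3 and 69.8 on the WT arrays and 73.6 and 46.5 on the KO arrays, was Present on 1 array and was not tested.

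At the probe sets annotated to them alone, the smooth muscle and nonmuscle pair lay lower in KO without passing the test. Myl9, the regulatory chain of smooth muscle, had signals of 9775 and 9859 on the WT arrays and 8820 and 8388 on the KO arrays, with no overlap. The difference was -0.19 ± 0.082 (95% interval -0.37 to -0.015), which missed the threshold over all probe sets (adjusted p = 0.288 in limma). Myl6, the essential chain shared by smooth muscle and nonmuscle myosin, read 399 and 372 on the WT arrays and 372 and 281 on the KO arrays at 1435041_at. The lower KO array was replicate 2, and the highest KO signal lay just under the lowest WT signal. The difference of -0.25 ± 0.16 did not pass (95% interval -0.60 to 0.092, adjusted p = 0.466). It was -0.052 without KO replicate 2. Another 2 probe sets, 1424269_a_at and 1434396_a_at, are annotated to Myl6 together with other genes and so stayed outside the 11. They read 3306 and 2902 on the WT arrays and 3347 and 3129 on the KO arrays, and 5742 and 4973 on the WT arrays and 5862 and 5201 on the KO arrays. Their differences were 0.063 and 0.047, of the opposite sign to 1435041_at, and neither passed (adjusted p = 0.804 and 0.862).

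**Figure D2:**
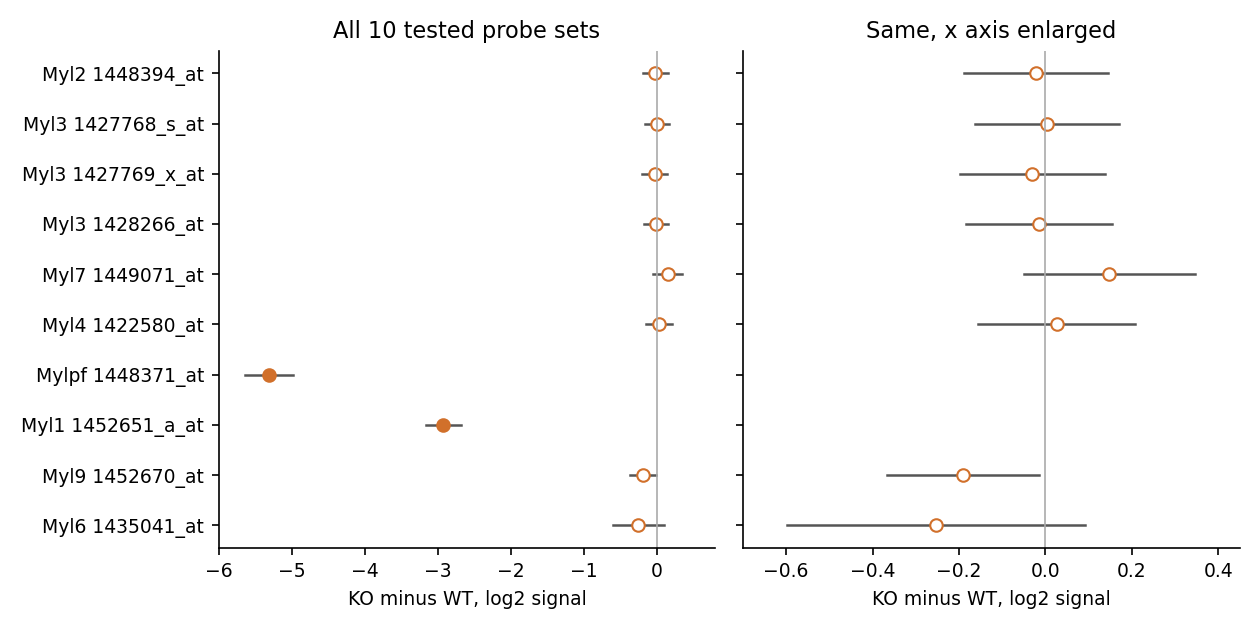
Difference in log2 signal, KO minus WT, for the 10 tested light chain probe sets, with 95% intervals from limma (n = 2 arrays per group), on the full range at left and enlarged around 0 at right. Filled points, Mylpf at -5.31 and Myl1 at -2.92, passed an adjusted p of 0.05, open points did not, and the intervals of the open points include 0 except that of Myl9.

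Each gene was then read against Myl2 on the same array. This takes out a difference in overall scale only as far as the signal of Myl2, near the top of the range, follows the amount of RNA, which was not tested. Mylpf relative to Myl2 changed by -5.29, from WT signals to KO signals called Absent, and Myl1 by -2.90 on the log2 scale. The other 5 changed by little: -0.23 for Myl6, -0.17 for Myl9, 0.17 for Myl7, 0.047 for Myl4 and 0.026 for Myl3. An exact two-sided permutation test over 4 arrays cannot go below p = 0.333. It gave that smallest value for Mylpf, Myl1, Myl4, Myl7 and Myl9 (adjusted p = 0.467 over the 7 pairs) and 0.667 for Myl6 and Myl3 (exact, adjusted p = 0.667). With 2 arrays per group, the test cannot separate a change of -5.29 from one of 0.047.

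**Figure D3:**
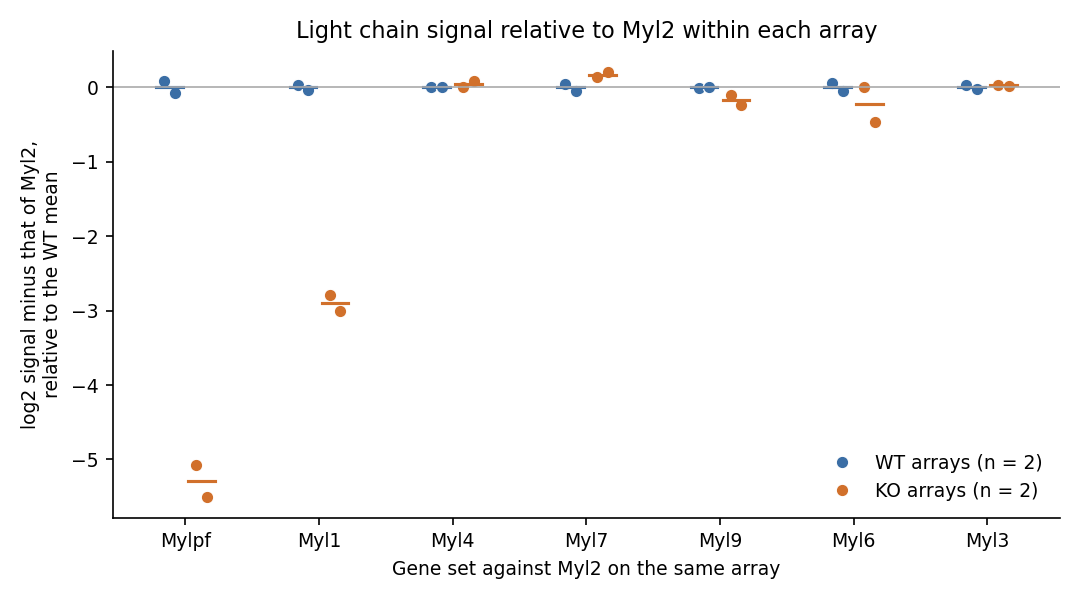
Log2 signal of each light chain minus that of Myl2 on the same array, shown relative to the WT mean, with 1 point per array (WT blue, KO orange) and a bar at each group's mean (n = 2). Mylpf and Myl1 move by -5.29 and -2.90, and the other 5 genes by between -0.23 and 0.17.

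The other light chain genes on the array gave no call. Myl12a and Myl12b, the nonmuscle regulatory chains, stood at -0.047 ± 0.092 and 0.079 ± 0.11 (adjusted p = 0.848 and 0.780 in limma). Myl6b, an essential chain close to Myl6, and Myl10 had no Present call on any array and were not tested. Their signals were at most 36.1. The list of light chain kinases and the myosin phosphatase held 13 genes, of which 10 had a probe set of their own and 9 were tested, and 0 passed in limma, with 1 at an unadjusted p under 0.05. Over all probe sets tested 15.5% had an unadjusted p that low, so 1 of 9 is no more than the background. That 1 was Mylk4, a striated muscle kinase of the light chain kinase family, with signals of 99.7 and 143 on the WT arrays and 66.8 and 79.9 on the KO arrays (-0.71 ± 0.24, adjusted p = 0.186). Next came Ppp1r12a, the targeting subunit of the phosphatase that removes the phosphate, at 0.22 ± 0.11 (adjusted p = 0.351). Mylk3, the cardiac kinase of Myl2, stood at -0.10 ± 0.11 (adjusted p = 0.690). The list's median was -0.10.

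Among the myosin heavy chains, the partners of the light chains, Myh3, Myh8 and Myh1 fell. Of 13 listed genes 8 were tested, 3 fell and 0 rose in limma. Of the 3, Myh8 alone was Present on all 4 arrays. The other fast adult chains, Myh2 and Myh4, had no Present call on any array and were not tested. Myh3, the embryonic heavy chain, had signals of 760 and 862 on the WT arrays and 35.4 and 37.8 on the KO arrays (-4.47 ± 0.18, adjusted p = 3.46e-09). Myh8, the perinatal chain, had 1027 and 983 on the WT arrays and 29.8 and 54.6 on the KO arrays (-4.64 ± 0.23, adjusted p = 5.86e-08). Myh1, a fast adult chain, was read at 1427868_x_at, whose suffix marks probes that may match other transcripts. Myh1 was dim there, with 105 and 110 on the WT arrays and 9.7 and 1 on the KO arrays. Its difference of -5.11 ± 0.78 (adjusted p = 0.00458) ran from -6.75 to -3.47 with an array left out with its call lost under a robust prior of the variance (adjusted p = 0.0636), without a variance trend (0.203) and without the filter on detection (0.260). In the signal log ratio all 3 lost their calls (adjusted p = 0.353 each), where Myl1 held the 1 probe set that passed over the whole array. Every other gene named here as having risen or fallen, the skeletal, slow, atrial, fibroblast, bone and red cell genes included, had no call in the signal log ratio. Both of the cardiac chains, Myh6 at -0.079 ± 0.081 and Myh7 at -0.040 ± 0.079, did not pass, and nor did Myh9, a nonmuscle chain, at -0.21 ± 0.12 (adjusted p = 0.419). The list's median was -0.15.

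Markers of fast and embryonic skeletal muscle moved with Mylpf and Myl1. Of 19 listed genes, 12 were tested, 9 fell and 0 rose in limma. The 9 were Tnnc2, Tnnt3 and Tnni2 of the fast troponin complex, the heavy chains Myh1, Myh3 and Myh8, the thin-filament ruler Neb, Klhl41 and the calcium pump Atp2a1. Each WT array called 12 of the 19 Present and each KO array 5. The summed signal of the list was 9696 and 9300 on the WT arrays and 3161 and 2954 on the KO arrays. Its median difference was -3.78, or -3.42 with the 6 genes never Present in KO set to their bound. Of the 12, 8 entered the test through their WT arrays without being Present on all 4, a filter that favours a fall, and among the 4 Present on all arrays 3 fell, with a median of -1.36. Casq1, the calsequestrin of fast fibres, went the other way without passing, at 0.31 ± 0.11 (adjusted p = 0.209). The myogenic factors Myod1, Myog, Myf5 and Myf6 and the satellite cell factor Pax7 had no Present call on any array. Of the 12, the number that fell was 4 without the filter on detection, 3 without a variance trend, 6 under a robust prior and 0 in the signal log ratio. Of 4 slow skeletal genes 2 fell: Mybpc1, myosin-binding protein C of slow fibres (-4.21 ± 0.17), and Tnnt1, slow troponin T (-0.88 ± 0.13). Tnnt1 lost its call without the filter on detection (adjusted p = 0.0918) and without a variance trend (0.170), which left 1 of the 4. Tnni1, at 11393 and 12089 on the WT arrays and 11946 and 11684 on the KO arrays, did not pass, and nor did Myh7b. Whether those signals came from heart or skeletal muscle was not tested. The part of skeletal muscle content in the falls of Mylpf and Myl1 was not tested.

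Markers of the heart itself did not move in this way. All 11 general cardiomyocyte genes and all 6 ventricular genes were Present on each array, and 0 of the 17 passed in limma (2 at an unadjusted p under 0.05, where the background was 15.5%), with medians of -0.012 and -0.025. The summed signal of the cardiomyocyte list was 100850 and 99334 on the WT arrays and 96771 and 100411 on the KO arrays. Several genes of that list lay near the top of the scale: Myh7 read 15918 and 15757 on the WT arrays, the highest signals there. Whether signals that high follow the amount of RNA was not tested. Ryr2, Nkx2-5 and Gata4 were dimmer, with signals of at most 2077. Beside Myl7 and Myl4, 6 of 9 atrial markers were tested, and Sln, which restrains the calcium pump, was the 1 that fell (-0.84 ± 0.17, adjusted p = 0.0249 in limma). Which cells made the signal of Sln was not tested. Its difference was -0.52 without KO replicate 1 and -1.15 without KO replicate 2, and it lost its call without the filter on detection (adjusted p = 0.305) and without a variance trend (0.289). The summed atrial signal was 10016 and 9677 on the WT arrays and 8988 and 11143 on the KO arrays, and Gja5 and Bmp10 had no Present call on any array. Beside Myl9 and Myl6, 6 of 9 smooth muscle markers were tested and 0 passed in limma. An unadjusted p under 0.05, where the background was 15.5%, was seen for 2, Acta2 at 0.19 ± 0.082 and Myocd at -0.48 ± 0.13. With the replicate number as a block in the fit, 1 of the 6 was lower. The summed signal was 12442 and 12227 on the WT arrays and 12300 and 13420 on the KO arrays. Myh11, the smooth muscle heavy chain, Lmod1 and Actg2 had no Present call on any array.

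**Figure D4:**
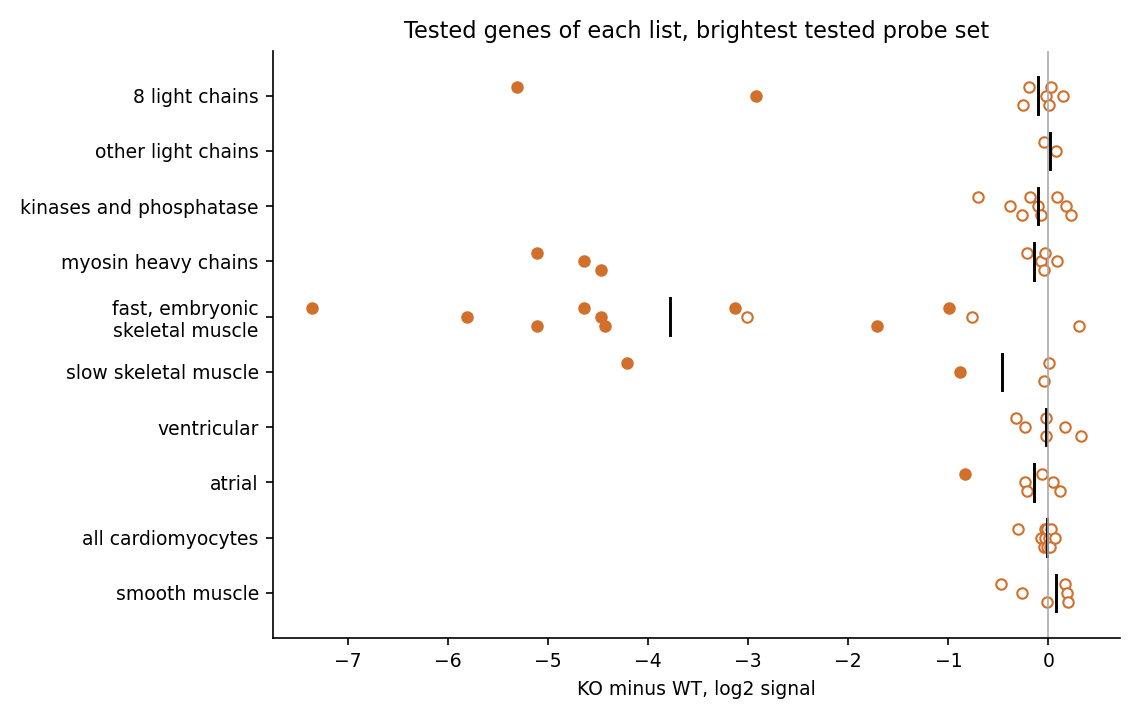
Difference in log2 signal, KO minus WT, for the tested genes of each list, 1 point per gene at its brightest tested probe set, filled where adjusted p was under 0.05, with a black line at each list's median. Fast and embryonic skeletal genes lie around a median of -3.78 and the 2 filled light chains lie among them, while the cardiomyocyte genes sit near 0; fitted values of genes not detected in KO are not bounds.

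Markers of further cell types also differed in places. Of 7 fibroblast genes 2 fell, Col1a1 (-0.73 ± 0.10) and Col1a2 (-0.55 ± 0.097), the chains of type I collagen, and Col1a2 no longer passed without WT replicate 2 (adjusted p = 0.102). Without the filter on detection, and without a variance trend, 0 of the 7 fell. Of 4 tested bone genes 3 fell, Ibsp, Dmp1 and Mmp13, all of which entered the test through their WT arrays, with no Present call in KO. Without the filter on detection 1 of the 4 fell, and the 1 gene Present on all 4 arrays did not pass. The summed bone signal was 428 and 418 on the WT arrays and 65.7 and 64.1 on the KO arrays. Dmp1 no longer passed when either WT array was left out (adjusted p = 0.0982 without WT replicate 1 and 0.0911 without WT replicate 2). Of 3 tested red cell genes the embryonic globin Hbb-y rose (2.27 ± 0.41, adjusted p = 0.0128 in limma, 0.0566 without KO replicate 1), but not without the filter on detection (0.302) or without a variance trend (0.158). Hbb-y was read at 1436823_x_at, whose suffix marks probes that may match other transcripts. Its signals were 9.8 and 18.8 on the WT arrays and 77.2 and 55.6 on the KO arrays. With no Present call in WT, Hbb-y entered the test through its KO arrays alone. In limma 0 of 6 endothelial genes and 0 of 4 macrophage genes passed, with 1 of each at an unadjusted p under 0.05. Their part in the light chain differences was not tested.

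The genes most like the fast light chains over the 4 arrays were found by the Euclidean distance between mean-centred log2 signals, where 0 is an identical pattern. Where such a gene had several tested probe sets, the nearest was taken, which favours likeness, and the others are not given. For Mylpf the 5 nearest were Hdac2 itself at 0.49, Tnnt3 at 0.60, Myh3 at 0.93, the collagenase Mmp13 at 1.03 and the muscle membrane protein Atp1b4 at 1.07. For Myl1 they were Tpm2, the beta-tropomyosin of skeletal and smooth muscle, at 0.19, then Ddo, an oxidase of D-aspartate, at 0.55, Car3, a muscle carbonic anhydrase, at 0.69, Acta1, skeletal alpha-actin, at 0.76 and the angiotensin receptor Agtr2 at 0.80. Tpm2 at 1449577_x_at had signals of 800 and 692 on the WT arrays and 118 and 94.3 on the KO arrays, at a probe set whose suffix marks probes that may match other transcripts. Over 4 arrays in 2 groups, such distances mostly record the size of the difference between the groups. Hdac2, Tnnt3, Mmp13, Atp1b4 and Agtr2, like Mylpf, had no Present call in KO and entered through their WT arrays alone. Their distances therefore rest in part on KO signals called Absent. Hdac2 is also the gene by which the groups were defined, so its fall was set by the design.

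The arrays were alike in scale and detection. Their 2% trimmed mean was 150 on all 4, and 42.4% to 43.7% of probe sets were Present. The 3' over 5' control ratio, which rises as RNA shortens, was 1.85 and 2.32 on the WT arrays and 2.75 and 2.42 on the KO arrays for actin, and it was also higher on both KO arrays for Gapdh. Xist, made from the inactive X chromosome, had signals of 80.5 and 90.1 on the WT arrays and 548 and 794 on the KO arrays, and the Y-linked Eif2s3y 431 and 449 on the WT arrays and 240 and 126 on the KO arrays. The sources used here do not state the embryos' sex, and its part in the light chain differences was not tested.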

How the data were processed

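Signals were measured on 4 Affymetrix MOE430v2 arrays, from 6 µg of total RNA each. Per the submitters' processing notes, the deposited intensity is a MAS5 signal, version not given in the sources used here. Per the file headers, a detection p-value, its call and a signal log ratio against an unnamed baseline array stand beside it. The deposited signal log ratio was taken as log2, and its differences ran at 0.838 of those of the log2 signal over the called probe sets Present on all 4 arrays. The deposited table for the series held the same intensity values. Of 45101 probe sets 64 controls were left out. Signals of 0 (4 in all) were set to 0.1, log2 was taken, and probe sets Present on both arrays of a group (19065) were fitted with limma 3.58.1 (lmFit, eBayes with a variance trend) in R 4.3.3 on genotype, after the fit was tested on simulated data. The p-values are two-sided, adjusted by Benjamini-Hochberg over all tested, with a threshold of 0.05. Errors are moderated SE. Bounds set the undetected group at the higher of its own signal and the lowest Present signal of each array. The p-values rest on the spread between pools, which may be technical, and 2 arrays per group limit the precision. In limma each probe set's spread was also drawn toward that of all tested probe sets of like signal. Without the variance trend the adjusted p in limma was 0.00111 for Mylpf and 0.00464 for Myl1. A gene with several probe sets was read at its brightest tested one, except among the most alike genes, where its nearest tested one was taken. Named genes are the light chains, list members past the threshold, the 2 nearest to it in the lists of light chain partners, undetected defining markers, the 5 most alike genes of each changed light chain, with Mylk3, Myh7, Casq1, Xist and Eif2s3y added after their values were seen. Ryr2, Nkx2-5, Gata4, Tnni1, Myh7b, Acta2 and Myocd were also named after their values were seen. Symbols were updated through gene identifiers in the RefSeq table of GRCm38.p6. The members and lists were chosen with earlier results of these data known. Alternatives varied scaling, offset, filter, variance prior, signal measure, replicates and the replicate block. Some genes of the light chain kinase list are not reported here, so it was shortened after its values were seen.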

Additional observations from a re-analysis of the deposited data

How the results depend on the processing

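The number of light chain probe sets lower in KO stayed at 2 under 12 of 14 alternatives. It was 1 when only probe sets Present on all 4 arrays were kept, since Mylpf is then not tested, and 1 in the signal log ratio. None was higher under any of the 14. Over the array, 183 lower and 73 higher probe sets became 30 and 7 without the filter on detection, 19 and 4 without a variance trend, and 1 and 0 in the signal log ratio. With an array left out, 110 to 428 were lower and 48 to 222 higher. With the replicate number as a block, 450 were lower and 271 higher; same-numbered arrays did not deviate together (r = -0.011 across probe sets, which are not independent), so the numbers were not taken as pairs, and the block changed no light chain call. Of 139 member values under the alternatives, 130 kept direction and call, 1 lost its call (Mylpf) and 8 turned sign, all near 0. With an array left out, Myl2 ran from -0.053 to 0.0095, Myl3 from -0.024 to 0.033 (1427768_s_at) and -0.033 to 0.0042 (1428266_at), Myl4 from -0.044 to 0.095 and Myl12a from -0.11 to 0.012. Centring on the median gave -0.027 for Myl3 at 1427768_s_at and -0.0053 for Myl4, and quantile normalization gave 0.019 for Myl3 at 1428266_at. Relative to Myl2, Myl6 ran from -0.46 to 0.00063 and Myl3 from -0.0029 to 0.055. The cause of these turns was not tested. The alternatives for genes outside the 8 were added after the data were seen.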
